A study of Homo sapiens with 24 samples.

Results

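GDF15, ADM2, STC1 and STC2 encode 4 hormones that cells secrete under stress. Their rows were taken by symbol from the count tables of 4 human cancer cell lines, so they are 4 genes of 61533. They were chosen with their untreated levels and their response to treatment already known, and both are therefore given as a description. Where calls of these genes from the fit of all genes are counted, they are no evidence, since the choice used the same contrasts. The treatment, Piezo-CAP, exposes cells to cold plasma, an ionised gas that a piezoelectric generator makes without much heat. In each line 3 libraries came from cells exposed for 60 s and 3 from unexposed cells (0 s), with RNA taken at 24 h. All lines are labelled wild type (WT) and no other agent is named. Cal27, A375 and Hth83 were grown in DMEM and Fadu in MEM, both with 10% serum, and RNA was taken with Trizol. Cal27 is a tongue squamous carcinoma line, Fadu a hypopharyngeal squamous carcinoma line, A375 a melanoma line and Hth83, by its name, an anaplastic thyroid carcinoma line. The labels call all 4 head and neck cancer cells, give 1 line of each kind and leave unstated if a group's 3 libraries are 3 cultures, and any p below then reflects library spread alone, which may be technical.

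GDF15 is a distant member of the TGF-beta superfamily that is cut by furin-like proteases, circulates, and lowers food intake through the receptor GFRAL and its partner RET in the hindbrain. ADM2, also called intermedin, is a peptide of the calcitonin and adrenomedullin family that widens blood vessels through the receptor CALCRL paired with a RAMP protein. STC1 and STC2 are glycoproteins related to the fish hormone that lowers calcium, and in mammals they block the proteases PAPPA and PAPPA2, which free insulin-like growth factors from their binding proteins. The integrated stress response, in which kinases of eIF2alpha raise the translation of the transcription factor ATF4, is a known inducer of GDF15, ADM2 and STC2. GDF15 is also a known p53 target, and both stanniocalcins are known to respond to low oxygen. Only RNA was measured here, not the secreted proteins.

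Library totals ran from 27882581 to 49514338 counts. Levels are in CPM, the share of a library's counts scaled by TMM to a common total. SOX10 marked A375 (1120 ± 10.4 CPM, SD, n = 3 untreated libraries), with MITF at 74.6 ± 4.13 CPM, whereas the pigment genes PMEL, MLANA, TYR and DCT were each under 2 CPM there. Of 8 squamous epithelium markers, 5 were at 10 CPM or more in untreated Cal27, 8 in Fadu, 7 in the libraries labelled Hth83 and 0 in A375. Of 7 thyroid follicle markers, PAX8 alone was above that level in Hth83 (128 ± 0.542 CPM). TG was at 0.0409 ± 0.0362 CPM there and NKX2-1 at 0 counts in all 6 Hth83 libraries. Most of these markers were thus absent, and Hth83 is kept here as a label. In untreated Cal27 2 of the 7 were above that level, PAX8 (22.2 ± 2.12 CPM) and FOXE1 (13.1 ± 0.55 CPM), and in A375 and Fadu 0. The summed squamous markers moved with treatment in Cal27, from between 1587 and 1628 CPM to between 961 and 989 CPM. In Fadu they went from between 6028 and 6223 CPM to between 2930 and 3237 CPM. The Hth83 sums overlapped (1662 to 1714 and 1646 to 1754 CPM). These sums hide opposite moves. In Fadu KRT5 went from 4085 to 1281 CPM and most others were lower, but S100A2 (305 to 626 CPM) and SFN (268 to 311 CPM) were higher. In Hth83 KRT5 (132 to 201 CPM), S100A2 and SFN were higher, and KRT15 (92.8 to 32.9 CPM) and the rest lower. In A375 the summed melanocyte markers went from between 1182 and 1208 CPM to between 1053 and 1080 CPM, and the squamous ones from between 10.2 and 12.3 CPM to between 22.1 and 26.2 CPM. The summed endothelial markers of A375 went from between 16.8 and 20.8 CPM to between 23.5 and 28.6 CPM. That rise was KDR (13.3 ± 1.78 to 21.4 ± 1.32 CPM), whereas PECAM1, VWF and TEK had lower means in treated A375. The summed endothelial markers of Fadu went down, from between 8.77 and 10.3 CPM to between 2.25 and 3.08 CPM. Those of Cal27 also did, from between 3.14 and 3.37 CPM to between 1.59 and 1.90 CPM. Those of Hth83 went from between 0.526 and 0.728 CPM to between 0.785 and 1.14 CPM. In Hth83 the thyroid markers, nearly all PAX8, went from between 128 and 129 CPM to between 161 and 179 CPM. Summed leukocyte markers were at most 8.01 CPM in every library, with 1 of 6 at 0 counts in Cal27, A375 and Fadu and 4 of 6 in Hth83. The part of these shifts in the results below was not tested, and in bulk RNA fewer cells of a type and less RNA per cell cannot be told apart.

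GDF15 RNA was lower in treated than in untreated libraries of all 4 lines, and by far the most in Hth83. There the 3 untreated libraries held 79.2, 79.2 and 131 CPM and the 3 treated libraries 2.999, 2.03 and 2.43 CPM. The 2 groups of Hth83 lay far apart, although replicate 3 stood above the other 2 untreated libraries, with 3810 counts beside 2938 and 2863. The means were 96.4 ± 29.8 and 2.49 ± 0.487 CPM (SD, n = 3), a 38.4-fold difference (log2 fold change -5.26 ± 0.36, SE). Of 17279 genes tested in Hth83, 5 had a lower log2 fold change. With each of the 6 libraries left out in turn the value ran from -5.42 to -4.98.

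Cal27 and Fadu had smaller GDF15 differences from higher or similar starting levels. In Cal27 the untreated libraries held 309, 322 and 297 CPM and the treated ones 140, 135 and 133 CPM, a log2 fold change of -1.18 ± 0.04. In Fadu the untreated libraries held 100.5, 99.3 and 105 CPM and the treated ones 40.3, 34.1 and 34.1 CPM, a log2 fold change of -1.495 ± 0.05. Replicates in both lines were close, and every treated library was below every untreated one. A375 had little GDF15 RNA at the start, 8.05, 5.98 and 7.84 CPM untreated and 4.12, 3.53 and 3.58 CPM treated (log2 fold change -0.97 ± 0.14). These A375 values rest on 196 to 409 counts per untreated library and 120 to 152 per treated library, and the groups did not overlap. By their fold, 123 of 17371 genes tested were lower than GDF15 in Cal27, 381 of 19152 in Fadu and 1318 of 19604 in A375.

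GDF15 (ENSG00000130513) lies on chromosome 19 from 18374731 to 18389176 on the plus strand of GRCh38 in GENCODE 29. The microRNA gene MIR3189 lies within its span on the same strand and touches no GDF15 exon. MIR3189 had at most 48 counts in a library. In deposited TPM (a share of transcripts, which allows for gene length) untreated GDF15 stood at 244 ± 7.59 in Cal27, 93.3 ± 3.11 in Fadu, 90.9 ± 27.6 in Hth83 and 7.20 ± 1.06 in A375. Fadu and Hth83 overlapped, and their order turned with the scale, since CPM scaled over the 24 libraries put Hth83 (102.9 ± 31.7) above Fadu (95.5 ± 2.75). Cal27 was above and A375 below both with no overlap, by 2.62-fold and 12.6-fold to the next line in TPM. In untreated Hth83 1723 of 30479 genes with a TPM above 0 stood above GDF15, and in treated Hth83 14283 did.

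**Figure D1:**
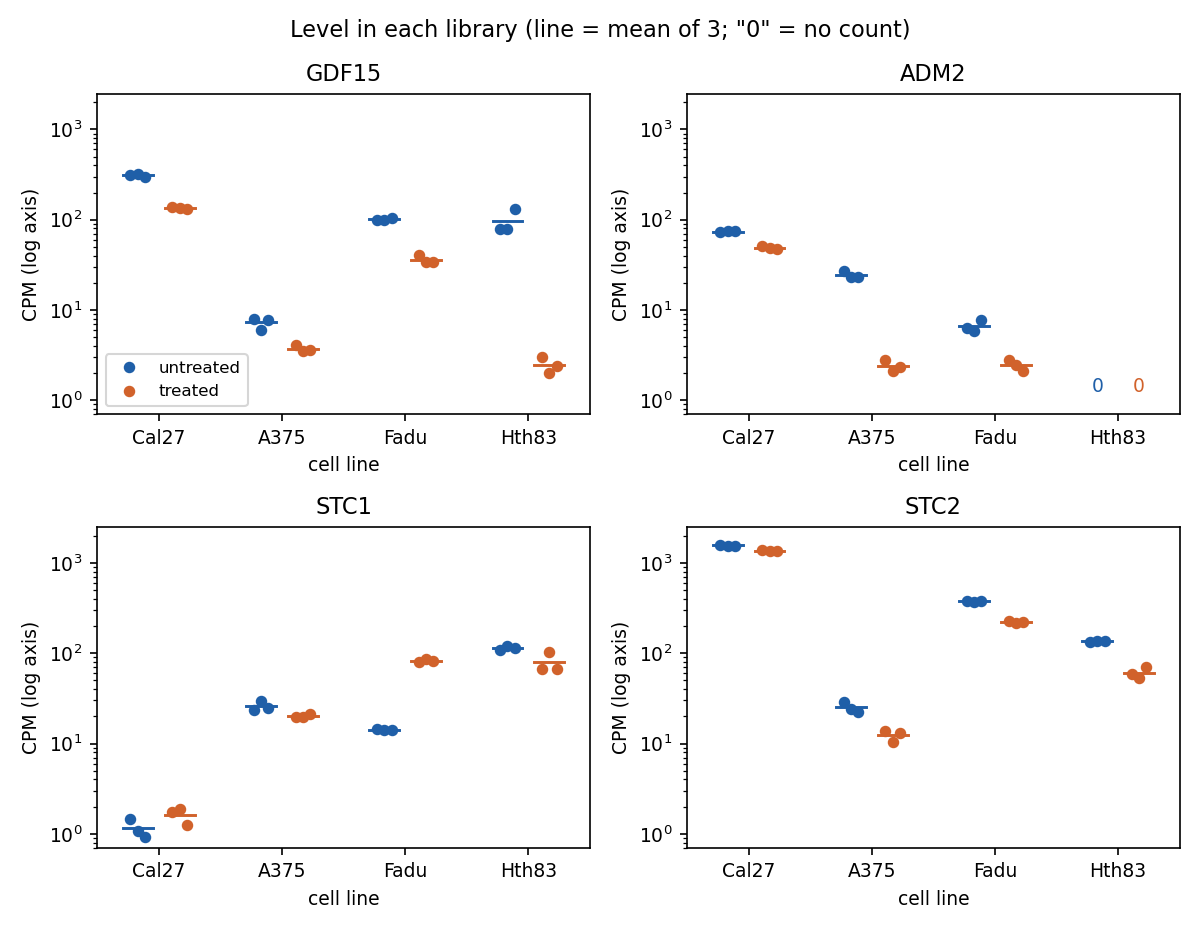
Level of GDF15, ADM2, STC1 and STC2 in each of the 24 libraries, in CPM on a log axis, by cell line on the horizontal axis, with blue points for untreated and orange points for treated libraries and a bar at each mean of 3. The treated GDF15 points of Hth83 sit near 2.49 CPM beneath untreated points at 79.2 to 131 CPM, STC1 in Fadu is the 1 panel with treated points far above the untreated ones, and ADM2 in Hth83 has no counts.

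ADM2 RNA was lower after treatment in the 3 lines that held it, with the largest difference in A375. The untreated A375 libraries held 27.0, 23.5 and 23.2 CPM and the treated ones 2.78, 2.14 and 2.33 CPM. The means were 24.6 ± 2.13 and 2.41 ± 0.33 CPM (SD, n = 3), 10.3-fold apart (log2 fold change -3.36 ± 0.11), and the groups were well separated. Of 19604 genes tested in A375, 15 had a lower log2 fold change. The Fadu libraries went from 6.34, 5.91 and 7.73 CPM untreated to 2.78, 2.49 and 2.12 CPM treated (log2 fold change -1.43 ± 0.17), on 205 to 229 and 69 to 91 counts, with no overlap. Cal27 kept most of its ADM2 RNA, with 72.2, 74.4 and 75.5 CPM untreated and 50.7, 49.1 and 47.2 CPM treated (log2 fold change -0.60 ± 0.05), again with no overlap.

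ADM2 had 0 counts in all 6 Hth83 libraries, which allows up to 0.0147 CPM over the 6 libraries together (3 counts, counting error only), and was not tested there. In TPM, untreated Cal27 held 173 ± 4.46, A375 71.7 ± 6.09 and Fadu 18.0 ± 2.57, and no neighbours in this order overlapped. The gene (ENSG00000128165) lies on chromosome 22 from 50481556 to 50486440 on the plus strand of GRCh38 in GENCODE 29. Its upstream sequence is shown because ADM2 is the 1 hormone gene with no count in a line, and because, of the 3 promoters searched, its window alone held no annotated exon. RefSeq (GRCh38.p14) gives the 250 bases before its start, chr22:50481293-50481542 on the plus strand, as follows, with a match to the hypoxia element core GCGTG and 3 matches to the GC box GGGCGG on the opposite strand in capitals.
ADM2 upstream: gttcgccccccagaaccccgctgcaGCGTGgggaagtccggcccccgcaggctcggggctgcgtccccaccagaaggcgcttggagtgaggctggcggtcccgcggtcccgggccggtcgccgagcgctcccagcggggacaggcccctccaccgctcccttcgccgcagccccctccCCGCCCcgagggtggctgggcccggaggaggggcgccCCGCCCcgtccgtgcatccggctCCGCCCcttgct
Bases G and C make up 78.8% of this window, against a median of 58% over 35116 RefSeq promoters. On either strand GCGTG occurs in 32.2% and GGGCGG in 42.6% of those promoters. The window held no match to the core of the composite element of ATF4 and C/EBP factors, TGATGNAA (3.14% of promoters), to the cyclic AMP response element TGACGTCA (1.65%), to the AP-1 element TGANTCA (6.57%), to ACGTG, the other form of the hypoxia element core, to the CCAAT box or to the TATA box (searched as TATAAA). The GDF15 window held 2 GC boxes, 1 CCAAT box and 1 TATA box, and the STC2 window 3 matches to GCGTG, of which 2 share a base, and 1 CCAAT, and neither held TGATGNAA. A match here is only a run of letters, and elements outside the 250 bases were not searched.

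STC2 was the most abundant of the 4 transcripts in untreated Cal27, Fadu and Hth83, and its treated CPM were lower in every line. In Hth83 it went from 132, 137 and 137 CPM to 59.1, 53.04 and 70.7 CPM (log2 fold change -1.15 ± 0.08). In Fadu it went from 383, 371 and 382 CPM to 228, 217 and 223 CPM (log2 fold change -0.77 ± 0.03). In A375 it went from 28.99, 24.3 and 22.3 CPM to 13.8, 10.4 and 12.9 CPM (log2 fold change -1.03 ± 0.10). The groups were apart in these 3 lines by more than the spread of their libraries. In Cal27 the difference was small, from 1569, 1559 and 1559 CPM to 1388, 1362 and 1368 CPM (log2 fold change -0.19 ± 0.03), and its direction hung on the scale. Deposited TPM put STC2 at 1300.1 ± 14.5 in untreated and 1344 ± 2.98 in treated Cal27, a log2 difference of 0.05, while the median of all genes on that scale was shifted by 0.20. Relative to that median STC2 was at -0.15, and GDF15 and ADM2 in Cal27 were at -1.14 and -0.56.

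STC2 (ENSG00000113739) lies on chromosome 5 from 173314713 to 173329503 on the minus strand. Its untreated TPM stood at 4 levels with no overlap, 1300.1 in Cal27, 366 ± 4.82 in Fadu, 135 ± 4.24 in Hth83 and 26.2 ± 3.56 in A375. In untreated Cal27 only 118 of 29418 genes with a TPM above 0 stood above STC2, and in untreated Fadu 390 of 33452.

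STC1, its paralog, was higher after treatment in Fadu and slightly lower in A375, and in Hth83 it was lower without passing the threshold in the fit of all genes. Fadu held 14.6, 14.0 and 14.0 CPM untreated and 79.9, 85.4 and 83.1 CPM treated, a 5.83-fold higher mean (log2 fold change 2.54 ± 0.06) with tight replicates in both groups. Of 19152 genes tested in Fadu, 100 had a higher log2 fold change. Hth83 held 108, 121 and 115 CPM untreated and 67.3, 102.9 and 67.6 CPM treated (log2 fold change -0.54 ± 0.20). Treated replicate 2 of Hth83 stood close to the untreated range, and the groups were apart by the gap between 102.9 and 108 CPM; without that library the log2 fold change was -0.77 and passed. A375 held 23.8, 29.9 and 24.5 CPM untreated and 19.8, 19.8 and 21.2 CPM treated (log2 fold change -0.36 ± 0.08), a small difference with no overlap. Cal27 had 27 to 40 counts per untreated and 42 to 69 per treated library, 1.16 ± 0.286 and 1.63 ± 0.326 CPM, and its groups overlapped.

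STC1 (ENSG00000159167) lies on chromosome 8 from 23841915 to 23854807 on the minus strand. Its untreated TPM was highest in Hth83 and lowest in Cal27, where STC2 was highest, with Hth83 at 122 ± 8.64, A375 at 28.9 ± 4.02, Fadu at 14.6 ± 0.224 and Cal27 at 1.03 ± 0.254, and no neighbours overlapped. After treatment Fadu, at 86.3 ± 3.95 TPM, stood beside treated Hth83 at 87.7 ± 22.8 TPM.

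**Figure D2:**
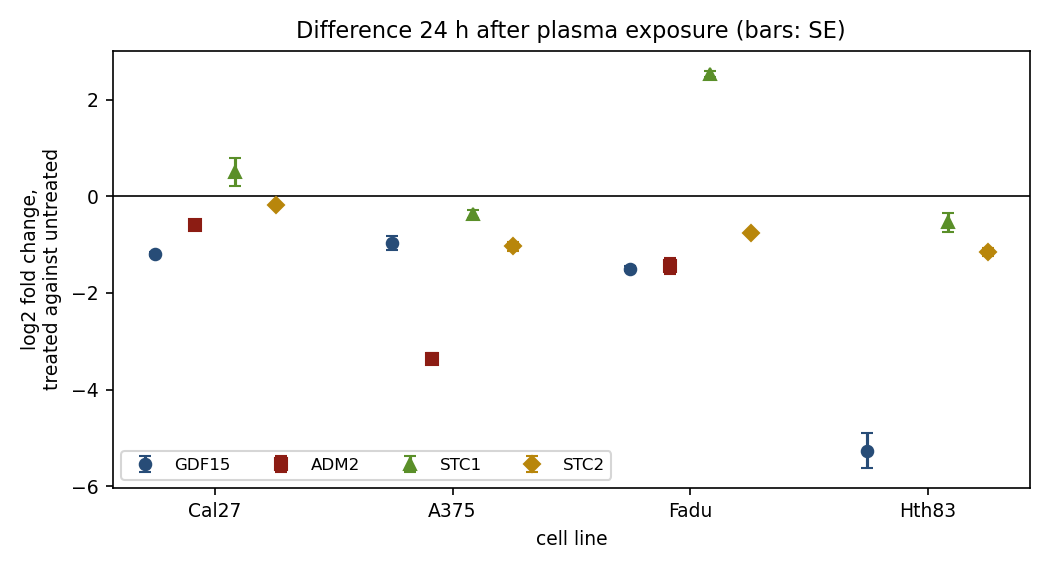
log2 fold change of treated against untreated libraries on the vertical axis, with bars of 1 SE, for the 4 genes in each cell line. GDF15 in Hth83 (-5.26) and ADM2 in A375 (-3.36) lie lowest, STC1 in Fadu (2.54) highest, and STC1 in Cal27 (0.50) is the other value above 0.

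Counted over the genes tested, 3 of 4 were called in Cal27 at an adjusted p under 0.05 by the quasi-likelihood test of edgeR, beside 45.1% of all genes tested, and 4 of 4 in A375, beside 50.5%. In Fadu 4 of 4 were called, 1 of them higher, beside 53.3%, and in Hth83 2 of 3, beside 50.1%. Treated and untreated libraries did not overlap for 3 of 4 in Cal27 (52.7% of all genes), 4 of 4 in A375 (57.9%), 4 of 4 in Fadu (58.6%) and 3 of 3 in Hth83 (57.2%). By direction, 3 lay lower in Cal27 (26.7% of all genes), 4 in A375 (29%), 3 in Fadu (29.4%) and 3 in Hth83 (27.9%). STC1 in Fadu was the 1 that lay higher, beside 29.2% of all genes there and 26% in Cal27, 28.9% in A375 and 29.2% in Hth83. The 4 genes were chosen on these contrasts, so nothing is read from these counts. The median log2 fold change of the tested members was -0.39 in Cal27, -1.003 in A375, -1.10 in Fadu and -1.15 in Hth83, where the median over all genes tested lay between -0.02 and 0.01. At least 2-fold lower calls were rarer, 1.12% of genes in Cal27, 5.51% in A375, 4.84% in Fadu and 4.77% in Hth83.

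On the TPM scale the leading transcript of the 4 was not the same in every line. STC2 made 75.7% of their summed TPM in untreated Cal27 and 74.4% in untreated Fadu, ADM2 made 53.5% in A375, and in Hth83 STC2 (38.8%), STC1 (35.0%) and GDF15 (26.2%) shared it. After treatment STC1 was the leading transcript in A375 (48.8%) and Hth83 (57.2%) and made 25.1% in Fadu, where it had made 2.97%. Its own TPM was lower in treated A375 (28.9 to 21.1) and Hth83 (122 to 87.7), where its share grew as the summed TPM fell more. In Fadu its TPM was higher (14.6 to 86.3). The summed TPM went from 1718 ± 9.10 to 1607 ± 8.54 in Cal27, from 134 ± 9.05 to 43.2 ± 2.44 in A375, from 491 ± 9.77 to 344 ± 2.64 in Fadu and from 347 ± 31.1 to 153 ± 16.6 in Hth83 (SD, n = 3).

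**Figure D3:**
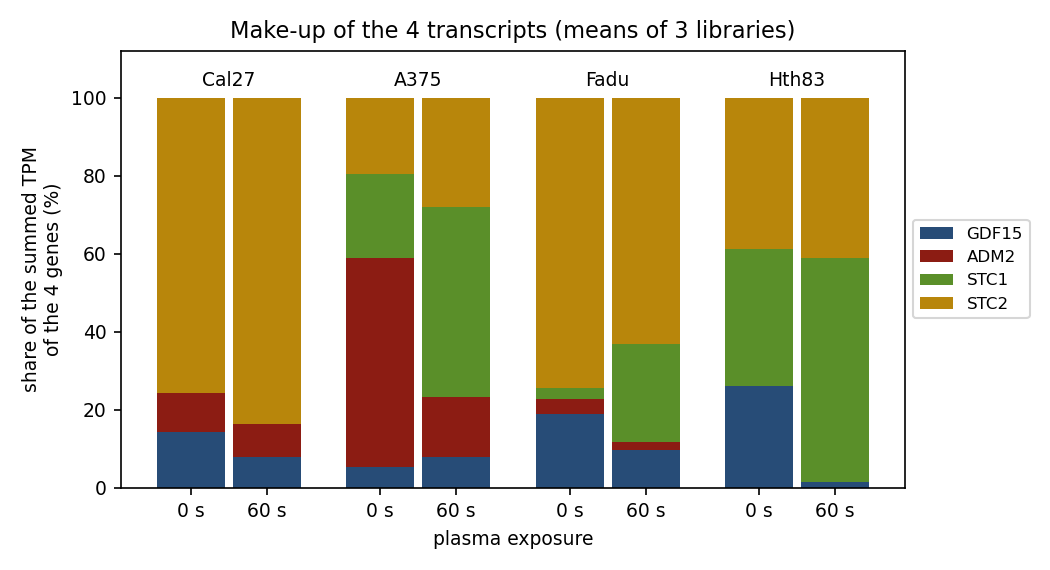
Share of each gene in the summed TPM of GDF15, ADM2, STC1 and STC2 (means of 3 libraries, vertical axis in percent) at 0 s and 60 s of plasma exposure in each line. STC2 fills most of both Cal27 bars (75.7% and 83.7%). The STC1 band widens from 21.6% to 48.8% in A375, where STC1 TPM was lower after treatment (28.9 to 21.1). It widens from 2.97% to 25.1% in Fadu, where STC1 TPM was higher (14.6 to 86.3).

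The proteases that process GDF15 were present in every line, and its receptor was not detected in any. FURIN, which cuts the GDF15 precursor, rose by 0.62 ± 0.04 on the log2 scale in Fadu (80.3 ± 4.88 to 124 ± 3.70 CPM, adjusted p = 4.09e-23 by edgeR), by 0.39 ± 0.05 in Hth83 and by 0.18 ± 0.04 in A375. MMP14, a membrane protease known to cleave GFRAL, fell in Fadu (log2 fold change -0.53 ± 0.04), rose in A375 (0.25 ± 0.04) and did not pass in Hth83 (0.07 ± 0.04). In Cal27 FURIN (-0.12 ± 0.05) and MMP14 (-0.16 ± 0.04) fell with TMM scaling, but stood at 0.12 and 0.08 in TPM, where neither passed. PCSK5, another convertase, fell in Fadu from 16.4 ± 0.719 to 8.80 ± 0.426 CPM (-0.90 ± 0.10), and PCSK6 rose there (0.47 ± 0.05) and in Cal27 (0.41 ± 0.06). GFRAL had 0 counts in all 24 libraries, which allows at most 0.0159 CPM over the 6 libraries of a line. RET was at 1.19 ± 0.122 CPM in untreated Cal27 and 0.554 ± 0.414 in untreated Fadu, did not pass there, and had at most 5 counts in any library of A375 or Hth83.

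The receptor side of ADM2 was thin as well. CALCRL, the receptor itself, was at 2.43 ± 0.00561 CPM in untreated Cal27, 1.51 ± 0.476 in A375, 0.792 ± 0.264 in Fadu and 0.0413 ± 0.0364 in Hth83. It fell in A375 (log2 fold change -1.11 ± 0.31) and in Fadu (-2.47 ± 0.56, on 18 to 39 and 2 to 8 counts). RAMP1, which makes CALCRL a receptor for the calcitonin gene-related peptide, was at 29.9 ± 2.78 CPM in untreated A375 and did not pass there (0.02 ± 0.07), fell in Cal27 from 17.8 ± 1.24 to 11.1 ± 1.11 CPM (-0.68 ± 0.10), and rose in Fadu from 2 to 12 counts to 24 to 34 counts. RAMP2 had 0 counts in Cal27 and Hth83 and 11 to 29 in untreated A375, where its change did not pass (-0.91 ± 0.51). RAMP3 had 0 counts in Cal27, A375 and Hth83, and CALCR, the calcitonin receptor, had at most 8 counts in any library.

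ADM, the close relative adrenomedullin, stood above ADM2 per length in 3 untreated lines, at 464 TPM in Cal27, 460 in Fadu and 51.9 in Hth83, and below it in A375, at 53.8. It fell in Fadu from 80.7 ± 1.98 to 34.4 ± 3.51 CPM (-1.23 ± 0.06 in log2, with an adjusted p of 1.46e-33 by edgeR) and in A375 (-0.48 ± 0.12), and rose in Hth83 (0.43 ± 0.11), the line with no ADM2 count. In Cal27 it fell on the TMM scale (-0.18 ± 0.05) and was at 0.05 in TPM. PAM, the enzyme that gives these peptides their amide end, fell in A375 (-0.45 ± 0.04) and Fadu (-0.58 ± 0.05), rose in Cal27 (0.23 ± 0.04) and did not pass in Hth83 (0.10 ± 0.06).

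For the stanniocalcins, the protease PAPPA was at 10 CPM or more in Hth83 and in no other line, at 23.4 ± 2.20 CPM untreated and 21.7 ± 2.45 CPM treated, which did not pass (-0.11 ± 0.09). It fell in A375 (4.32 ± 0.794 to 2.84 ± 0.166 CPM, log2 fold change -0.60 ± 0.17), did not pass in Cal27 and had at most 2 counts in a Fadu library. PAPPA2 rose in Fadu from 2.95 ± 0.479 to 4.18 ± 0.82 CPM (0.50 ± 0.18, which did not pass when all 24 libraries were fitted together), did not pass in Cal27 and had at most 7 counts elsewhere. IGFBP4, the binding protein that PAPPA cuts, rose in Hth83 from 7.83 ± 0.546 to 14.7 ± 0.692 CPM (0.90 ± 0.11) and in A375 (0.40 ± 0.05), fell in Fadu with overlapping groups (-0.17 ± 0.05, which did not pass in TPM) and did not pass in Cal27. IGFBP5 fell in A375 (-0.35 ± 0.09, which did not pass in the fit of all 24 libraries), and IGF1R, the growth factor receptor, fell in Fadu (-0.49 ± 0.04) and in A375 and rose in Cal27 and Hth83. IGF1 had 0 counts in all 24 libraries.

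**Figure D4:**
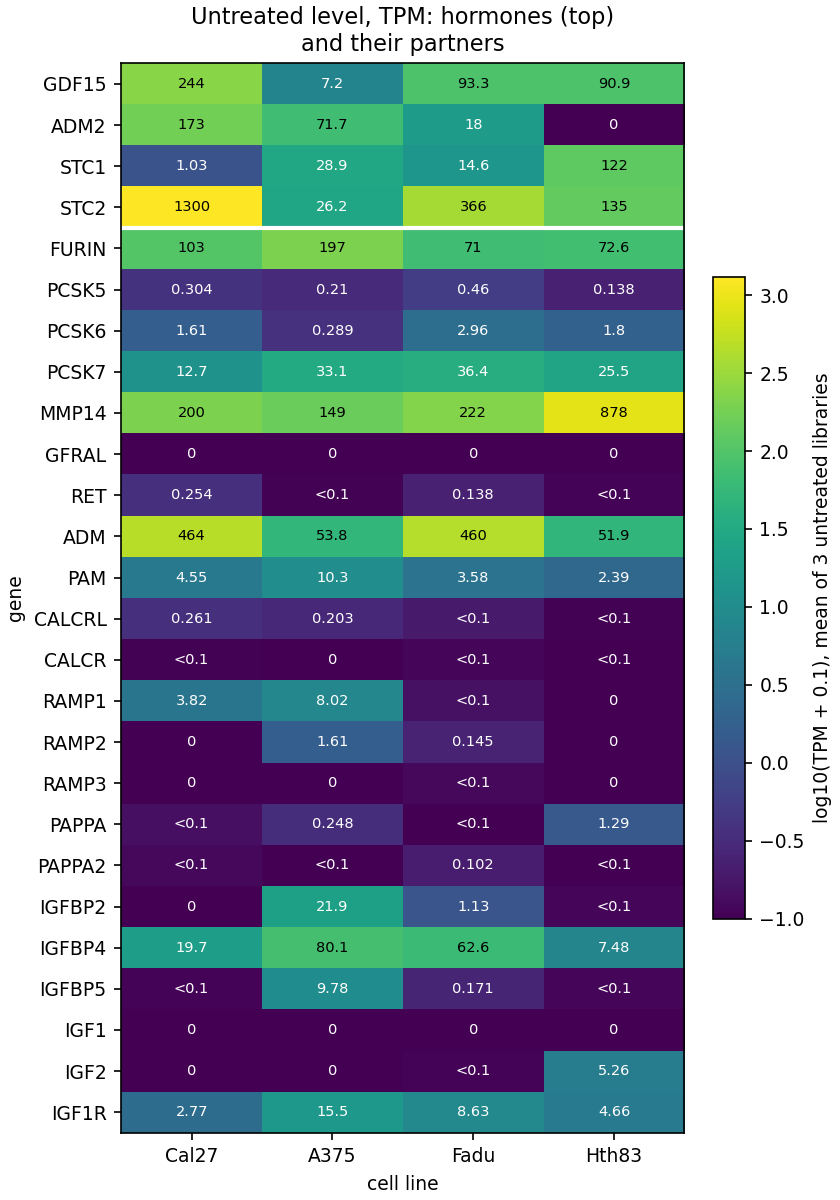
Untreated level of the 4 hormone genes (above the white line) and of their processing enzymes, relatives, receptors and partners, by cell line, as the mean TPM of 3 libraries, with colour on a log10(TPM + 0.1) scale. STC2 in Cal27 (1300) and MMP14 in Hth83 (878) are the brightest cells, and GFRAL and IGF1 are 0 throughout.

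The ATF4 circuit, a list of 17 genes with the 4 eIF2alpha kinases, ATF4 and its textbook targets, mostly fell with treatment. Of the genes tested, 11 of 17 fell and 2 rose in Cal27, where 23.2% of all genes fell and 21.9% rose, and 12 of 16 fell and 1 rose in A375 (24.8% and 25.7%). In Fadu 16 of 17 fell and 1 rose (27% and 26.3%), and in Hth83 13 of 16 fell and 2 rose (24.2% and 25.9%). The list medians were -0.43, -1.001, -0.79 and -1.87 in Cal27, A375, Fadu and Hth83. In Cal27 the split depended on scaling, with 8 genes lower and 6 higher in TPM. The list was drawn up with earlier results of these data known and is no independent evidence of a direction.

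DDIT3, the stress transcription factor also called CHOP, fell from 94.4 ± 8.18 to 5.90 ± 0.673 CPM in Hth83 (-4.00 ± 0.09 in log2, with an adjusted p of 1.31e-24 by edgeR) and by 1.64 in Fadu, 2.23 in A375 and 1.08 in Cal27 on the log2 scale. CHAC1, an enzyme that breaks down glutathione, fell from 30.1 ± 0.349 to 1.36 ± 0.276 CPM in Hth83 (-4.46 ± 0.13), and also in A375 (-2.62 ± 0.08), Fadu (-2.56 ± 0.25) and Cal27 (-1.01 ± 0.05). ASNS, asparagine synthetase, fell in Hth83 (-4.71 ± 0.18), A375 (-2.62 ± 0.11) and Fadu (-1.24), and did not pass in Cal27 (0.28). SESN2, a stress-induced brake on mTORC1, fell in all 4, most in Hth83 (-3.18 ± 0.07). All 4 genes differed between the lines by the interaction test (adjusted p of 3.08e-18 for DDIT3, 2.17e-09 for CHAC1, 1.11e-25 for ASNS and 3.70e-26 for SESN2), where 56.9% of 23642 genes did. ATF4 itself, named here after its values were seen, fell by 0.31, 0.40, 0.61 and 0.99 on the log2 scale in Cal27, A375, Fadu and Hth83, and did not pass in Cal27 in TPM. The log2 fold changes of GDF15 were -1.18, -0.97, -1.495 and -5.26 in the same order, and those of STC2 -0.19, -1.03, -0.77 and -1.15. ADM2 was at -0.60, -3.36 and -1.43 in Cal27, A375 and Fadu, with no count in Hth83. STC1 was at 0.50, -0.36, 2.54 and -0.54 in the 4 lines. A link between ATF4 and these genes was not tested.

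**Figure D5:**
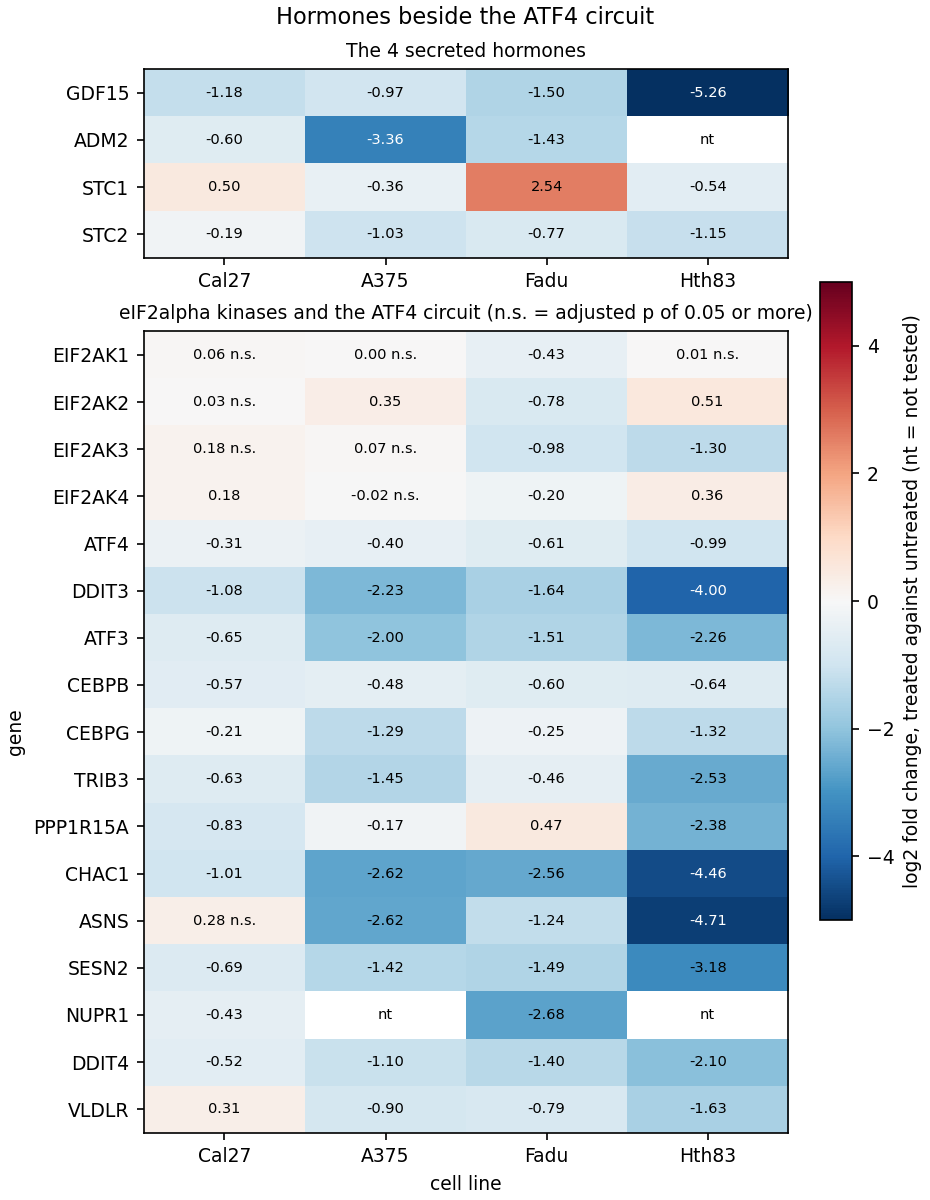
log2 fold change of treated against untreated libraries for the 4 hormone genes (top) and for the 4 eIF2alpha kinases and 13 genes of the ATF4 circuit (bottom), by cell line, with blue for lower and red for higher. The Hth83 column is darkest for GDF15 (-5.26), ASNS (-4.71), CHAC1 (-4.46) and DDIT3 (-4.00), while STC1 in Fadu (2.54) is the only strong red cell.

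The sensors and chaperones of the endoplasmic reticulum, the organelle in which these hormones are folded for export, mostly fell in 3 lines and were called in both directions in A375. Of 10 genes, 10 fell in Hth83, 9 in Fadu and 8 in Cal27, with 0 rising. In A375 5 rose and 4 fell (medians -1.68, -0.66, -0.41 and 0.18 in this order of lines). Over all genes tested, 21.9% to 26.3% rose in a line and 23.2% to 27% fell. The counts were not tested against these shares. HSPA5, the main chaperone of that compartment, fell from 8448 ± 524 to 1149 ± 6.19 CPM in Hth83 (log2 fold change -2.88 ± 0.04), fell in Fadu (-1.04 ± 0.03) and Cal27 (-0.62 ± 0.03) and rose in A375 (0.71 ± 0.03). MANF, a chaperone-associated secreted protein, had the same signs, from -1.78 ± 0.05 in Hth83 to 0.74 in A375. HERPUD1, which helps degrade misfolded proteins, fell in all 4, from -3.40 ± 0.05 in Hth83 to -0.30 in Cal27. DNAJB9, an HSPA5 co-chaperone, fell in Hth83 (-2.49 ± 0.06) and Fadu (-1.30) and did not pass in the others.

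The p53 list did not move one way. Its counts stand beside 21.9% to 26.3% of all genes that rose in a line and 23.2% to 27% that fell. They were not tested against these shares. Of 12 genes, 5 rose and 4 fell in Cal27, 6 and 3 in A375, 3 and 8 in Fadu and 4 and 4 in Hth83 (medians 0.09, 0.25, -0.28 and -0.05). CDKN1A, the cell cycle inhibitor p21, rose in Fadu from 42.0 ± 0.749 to 88.3 ± 1.58 CPM (log2 fold change 1.07 ± 0.05) and in A375 (0.91 ± 0.13) and fell in Hth83 (-0.91 ± 0.06) and Cal27 (-0.59 ± 0.04). GADD45A, a growth arrest gene, fell in all 4 lines, most in Hth83 (-1.77 ± 0.06), as did BBC3, the cell death gene PUMA (-1.44 ± 0.14 in Hth83). RRM2B, a subunit of ribonucleotide reductase, fell in Fadu (-0.89 ± 0.05).

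Most genes of the hypoxia response fell in Fadu and A375 and fewer did in Cal27. Of 12 genes, 11 fell in Fadu and 8 in A375, with 0 and 2 rising, and in Hth83 6 of 10 tested fell and 1 rose (medians -0.86, -0.69 and -0.39). In Cal27 4 rose and 2 fell (median 0.04), and 8 rose and 0 fell in TPM. With TMM scaling, 21.9% to 26.3% of all genes rose in a line and 23.2% to 27% fell. CA9, a carbonic anhydrase induced by low oxygen, fell from 22.6 ± 2.39 to 0.502 ± 0.102 CPM in A375 (-5.51 ± 0.16 in log2, with an adjusted p of 3.95e-22 by edgeR) and from 2.91 ± 0.295 to 0.975 ± 0.221 CPM in Fadu (-1.59 ± 0.25). In Cal27 CA9 did not pass (25.3 ± 3.07 and 23.9 ± 0.849 CPM), and in Hth83 it had at most 2 counts in a library. NDRG1, a stress and differentiation gene, fell in Hth83 (-1.60 ± 0.10), Fadu (-1.15 ± 0.03) and A375 (-0.92 ± 0.04) and rose in Cal27 (0.57 ± 0.03). VEGFA, the vascular growth factor, fell in Hth83 from 989 ± 48.4 to 387 ± 41.8 CPM (-1.35 ± 0.06) and in A375 (-0.91).

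Other factors that stressed cells secrete were called in both directions, and in Fadu more of them rose than fell. Over all genes tested, 21.9% to 26.3% rose in a line and 23.2% to 27% fell. Of 20 genes, 11 rose and 7 fell in Fadu, 2 rose and 17 fell in Cal27 (1 and 10 in TPM), 4 rose and 12 fell of 19 tested in Hth83 and 5 rose and 6 fell of 17 tested in A375 (medians 0.39, -0.47, -0.38 and 0.05). INHBA, a subunit of activin, rose in Fadu from 0.956 ± 0.28 to 22.6 ± 1.05 CPM (log2 fold change 4.58 ± 0.14) and fell in A375 (-1.28 ± 0.09), Cal27 (-0.44 ± 0.03) and Hth83 (-0.28 ± 0.05, which did not pass in TPM). FST, follistatin, which binds activin, rose in Fadu from 52.1 ± 0.964 to 249 ± 3.74 CPM (2.25 ± 0.04) and fell in Cal27 (-1.98 ± 0.03). AREG and HBEGF, ligands of the epidermal growth factor receptor, fell in Hth83 (-2.17 ± 0.05 and -1.99 ± 0.05) and rose in Fadu (0.53 and 0.59).

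Among 21 ligands of the TGF-beta superfamily, the family of GDF15, the calls were mixed. They stand beside 21.9% to 26.3% of all genes that rose in a line and 23.2% to 27% that fell. The counts were not tested against these shares. In Fadu 4 rose and 5 fell of 14 tested, in A375 2 and 5 of 13, in Hth83 3 and 5 of 11 and in Cal27 0 and 5 of 10 (2 and 1 in TPM), with medians of 0.03, -0.07, -0.24 and -0.16. TGFB1 rose in Fadu (1.34 ± 0.06), TGFB2 rose in Hth83 (0.75 ± 0.11) and BMP2 rose in Fadu (0.73 ± 0.09). Of the ligands tested in Hth83, none had a log2 fold change below that of GDF15. Only 5 of all 17279 genes tested there did, and GDF15 was chosen on this contrast. Nothing is read from this comparison.

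The genes whose pattern was most like each hormone were ranked by Pearson's r of log2(CPM + 0.5) over the 24 libraries, among 15679 genes with a mean of at least 1 CPM. These r values are a description: the libraries share 4 lines and 1 treatment, and antisense genes cannot be told from their partners where the use of strand is not given. After the mean of each line was subtracted, which leaves mainly the treatment difference, NFE2L1 (r = 0.98), BTG1, NUCB2, ERRFI1 and WARS1 (0.98 each) were most like GDF15. For STC2 they were CHAC1 (0.96), MTHFD2, ATF3, SECISBP2 and DDIT3 (0.95). For ADM2 they were CA9 (0.97), CEBPD (0.94), PACSIN2 and EPAS1 (0.93 each) and 1 gene without a symbol. For STC1 they were 1 gene without a symbol (0.97), then ITGB5 (0.96), SPRY4, CAPRIN2 and TGFA (0.95). These names depend on the scale: on log2(TPM + 0.5), 3 of the 5 were shared for GDF15, 2 for STC2, 1 for ADM2 and 3 for STC1. Among the hormones themselves GDF15 and STC2 had r = 0.84, ADM2 and STC2 0.71, GDF15 and ADM2 0.29, and STC1 lay between -0.24 and -0.07 with the other 3. Every r of ADM2 includes the Hth83 libraries, where it had 0 counts and so a constant value, and where GDF15 differed most.

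On the levels themselves, which mostly order the lines, the nearest genes were others. They were L3MBTL2-AS1 (r = 0.97), HDLBP, SERINC1, SHMT2 and EVI5L for GDF15, and SH3D21 (0.98), CA9 (0.97), PSAP, PRECSIT and BNIP3 for ADM2. They were ALDH1A3-AS1 (0.98), PHF21B, MBOAT2, TFPI2 and YOD1 for STC1, and SLC11A2 (0.99), HOOK2, HOXD11, SPECC1 and ERO1A for STC2. On log2(TPM + 0.5), 2 of the 5 were shared for GDF15, ADM2 and STC1 and 3 for STC2. In levels on log2(CPM + 0.5), ADM2 and STC1 ran opposite to each other (r = -0.90) and GDF15 and STC2 alike (r = 0.89). The first of these includes Hth83, with no ADM2 count and the highest untreated STC1.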

How the data were processed

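Gene-level RNA-seq tables of 4 cell lines, 24 libraries in 8 groups of 3, were used, grouped by the labelled line and treatment. For each line the authors deposited raw counts and TPM for 61533 genes. Dividing the deposited counts by 1 length for each gene gives back the TPM, with a relative error of no more than 4.2e-13. The submitters' processing notes name HISAT2 and the build GRCh38, and a SMARTER kit was used for the libraries, per the labels' protocols. Not given in the sources used here are tool versions, the counter, the annotation, the use of strand and gene lengths. Symbols were matched for 61415 identifiers, and positions come from GENCODE 29, matched without the version.

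Counts were analysed per line in R 4.3.3 with edgeR 4.0.16: filterByExpr (minimum count 10, minimum total 15), TMM scaling, the robust quasi-likelihood test, and Benjamini-Hochberg adjustment over all genes tested, with a threshold of 0.05. A call is a gene past that threshold. A joint fit of all 24 libraries gave an F test of whether the response differs by line. The edgeR, DESeq2 and limma tests and the joint F test were first run on simulated counts. Far fewer genes were changed there than were called in the data, so the scaling was not checked. There limma was run on CPM and not on TPM, and the fits with a replicate block were not simulated. Replicate libraries were compared by chi-square, which per degree of freedom ran from 2.96 to 8.70, above counting error. The SE of a log2 fold change is its size divided by the square root of F from the quasi-likelihood test. It therefore includes the estimated spread between libraries. Floors cover counting error only.

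The 4 genes, the 10 lists (121 symbols), the 6 marker lists and the tests were chosen with earlier results of these data known. The genes named were the 4 hormones, 11 receptors and partners, in each list the 4 called genes with the largest fold change among those with at least 10 CPM in the higher group and no overlap, and the 5 genes most like each hormone. ATF4, FGF21 and INHBE were named after their values were seen. For the members no p is given. As alternatives the same contrasts were run with limma 3.58.1 on log2 of the deposited TPM (plus 1, filtered or not, or plus 0.1), with DESeq2 1.42.0, with scaling by RLE or by library size alone, without the count filter or with one at a CPM of 1, without robust dispersion, with a replicate block, jointly, and without each library in turn. No table column was left out, and protein sequences were not used here.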

Additional observations from a re-analysis of the deposited data

Results flagged for a closer look

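STC1 had the opposite direction in different lines, with every treated Fadu library above and every treated Hth83 and A375 library below all untreated ones of its line. The log2 fold changes of Fadu (2.54) and Hth83 (-0.54) were 3.08 apart. The Hth83 value did not pass in the fit of all genes, and ran from -0.77 to -0.43 with 1 library left out. This difference was not tested, since the gene was chosen on these contrasts.

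For the list genes below the response differed between the lines by the interaction test of edgeR, where 56.9% of all genes tested did. The values below are the distance between the highest and lowest log2 fold change among the lines tested, with no explanation. In the ATF4 circuit it was 4.98 for ASNS, 3.45 for CHAC1, 2.91 for DDIT3, 2.49 for SESN2 and 0.68 for ATF4. The last 4 of these fell in all lines, and ASNS did not pass in Cal27. Among endoplasmic reticulum genes it was 3.59 for HSPA5, 3.10 for HERPUD1, 2.69 for DNAJB9 and 2.53 for MANF. Among p53 genes it was 1.99 for CDKN1A, 1.62 for GADD45A, 1.30 for RRM2B and 0.62 for BBC3. Among hypoxia genes it was 5.43 for CA9, 2.17 for NDRG1, 1.66 for ADM and 1.23 for VEGFA. Among secreted factors and ligands it was 5.86 for INHBA, 4.23 for FST, 3.11 for AREG, 2.58 for HBEGF, 1.68 for TGFB1, 1.45 for TGFB2 and 1.01 for BMP2. Among immediate early factors it was 3.73 for FOSB, 2.49 for FOSL1, 2.32 for KLF4 and 1.42 for EGR1. Among the convertases listed for GDF15 it was 1.23 for PCSK5, 1.17 for PCSK6 and 0.74 for FURIN. For MMP14, the protease known to cleave GFRAL, it was 0.78. Among the receptor and maturation genes of ADM2 it was 2.77 for RAMP1, 2.32 for CALCRL and 0.81 for PAM, and RAMP1 rests on at most 34 counts per Fadu library. Among the partners of the stanniocalcins it was 1.08 for IGFBP4, 0.99 for PAPPA and 0.87 for IGF1R.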

How the results depend on the processing

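Under other settings 245 values of the 4 genes kept their direction and their side of the threshold, 3 were reversed, 5 came to pass it and 2 no longer did. STC2 in Cal27 (log2 fold change -0.19) was at 0.048 with limma on log2(TPM + 1), with or without a filter, and on log2(TPM + 0.1), and at -0.19 but no longer past the threshold with all 24 libraries fitted together. On the same 3 TPM scales ADM (0.052), FURIN (0.12), MMP14 (0.078) and VEGFA (0.057) were reversed in Cal27. The median log2 fold change of all genes was shifted by 0.20 on log2(TPM + 1), and the cause of these reversals was not tested. STC1 in A375 was at -0.43 and past no threshold on unfiltered log2(TPM + 1), which tests more genes. STC1 in Hth83 (-0.54) passed with DESeq2 (-0.54), without robust dispersion (-0.54) and in the joint fit (-0.55), and ran from -0.77 to -0.43 with 1 library left out, passing without treated replicate 2; the cause was not tested. Replicate numbers were not shown to pair the libraries, since the correlation of same-numbered libraries ran from -0.118 to 0.0898. With that number as a block STC1 in Hth83 was -0.56 and passed, and the block changed no other call of the 4 genes. Calls in A375 numbered 9900, and 6057 on unfiltered log2(TPM + 1). The share of calls that were higher in treated libraries was 48.5% in Cal27, but 62.4% by library size only and 83.4% in TPM. It was 50.9% in A375 (39.8% and 40.8%) and 49.3% in Fadu (61.8% by library size). Of the list counts, 130 moved by over 1.5 times and 1230 did not. Of the 5 genes most like each hormone, 1 to 3 were shared on log2(TPM + 0.5) and 3 to 5 on log2(CPM + 0.1). Low counts limit ADM2 in Fadu and STC1 in Cal27.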

Other observations

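Another pair of stress-induced hormones stood in the list of secreted factors at levels too low for the naming rule, and were named after their values were seen. FGF21, a metabolic hormone that ATF4 is known to induce, had 16 to 22 counts in the untreated Hth83 libraries and 0 in all 3 treated ones, at least 19.0-fold lower against 3 counts over the treated group. In Fadu FGF21 fell from 1.26 ± 0.454 to 0.177 ± 0.0836 CPM (-2.78 ± 0.47 in log2, with an adjusted p of 3.1e-07 by edgeR), and in Cal27 it did not pass (0.382 ± 0.12 and 0.311 ± 0.0873 CPM). INHBE, a liver-type activin subunit also known to respond to ATF4, fell in all 4 lines, by 3.66 in A375, 3.22 in Hth83, 1.91 in Fadu and 0.50 in Cal27 on the log2 scale. The median of the secreted factors in Hth83 was -0.38 with FGF21 at its fitted value or at its bound.

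Immediate early factors, which cells make within minutes of a stimulus, were read 24 h after exposure. Over all genes tested, 21.9% to 26.3% rose in a line and 23.2% to 27% fell. Of 9 genes, 3 rose and 6 fell in Cal27 (3 and 3 in TPM), 5 and 2 in A375, 2 and 7 in Fadu and 2 and 5 in Hth83. FOSL1 rose in Fadu from 58.9 ± 1.67 to 247 ± 12.9 CPM (log2 fold change 2.07 ± 0.04). It also rose in A375 (0.86 ± 0.11) and fell in Cal27 (-0.42 ± 0.03) and Hth83 (-0.19 ± 0.05). FOSB rose in Cal27 from 23.4 ± 2.60 to 99.6 ± 8.20 CPM (2.09 ± 0.07) and fell in Fadu (-1.64). KLF4 fell in Hth83 from 44.9 ± 1.34 to 8.92 ± 0.625 CPM (-2.33 ± 0.08), and EGR1 fell in A375 from 212 ± 18.1 to 86.2 ± 4.38 CPM (-1.30 ± 0.05).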
